A study of Mus musculus with 6 samples.

Results

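Genes that write, erase and read histone methylation were compared between HAT1 KO and HAT1 WT primary mouse embryonic fibroblasts. None of the 48 tested passed an adjusted p of 0.05 in edgeR, against 78 of all 14773 tested genes (0.528%). DESeq2's Wald test called 3 of the 48 and 871 of the 14773, and voom with quality weights called 1 and 267. At an unadjusted p under 0.05 in edgeR, 2 of the 48 were higher (4.17%, against 5.88% of all genes) and 5 were lower (10.4%, against 8.77%), shares near those of all genes. The reader Cbx5 and the H3K9 methyltransferase Suv39h1 were higher, and the demethylases Kdm7a and Kdm5a and the methyltransferases Kmt2a, Kmt2c and Kmt2e were lower. The set holds 50 listed symbols, chosen by name for the enzymes that place or remove methyl groups on lysines of histones H3 and H4 and for the HP1 proteins with their heterochromatin partners, and 49 of the 50 were among the 17512 genes of the table. The symbol Prdm3 was not in the table, where that gene is listed as Mecom.

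RNA was sequenced from 6 lines of primary embryonic fibroblasts of the C57bl6 strain, grown from mid-gestation embryos and genotyped by PCR. Lines 36, 47 and 78 carried the intact gene (HAT1 WT) and lines 33, 41 and 72 were labelled as knocked out for Hat1 (HAT1 KO), with no treatment in either group. HAT1 acetylates newly made histone H4, and the comparison asks whether its loss altered transcription. The labels do not say whether each line came from a separate embryo. The p-values set the genotype difference against variation between these lines, and how far they hold for other embryos is not known.

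Methylation of histone tails marks regions of chromatin for different uses. H3K4 methylation is found at promoters and enhancers, H3K36 and H3K79 methylation over transcribed genes, and H3K9 and H4K20 trimethylation in constitutive heterochromatin. SET domain enzymes and DOT1L add these marks, the LSD1 family and the Jumonji (JmjC) family remove them, and HP1 proteins bind methylated H3K9 through a chromodomain.

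The libraries held between 67720628 and 98786746 counts. Hat1 in HAT1 KO lines was at 50.4% of its HAT1 WT level, with a log2 fold change of -0.99 ± 0.12 (SE) and an adjusted p of 0.0376 (edgeR). KO line 72 stood apart from the others, with a mean correlation of 0.958 to the other 5 libraries against 0.974 to 0.979 for the rest. WT line 78 held 29520 counts of Xist and 231 of 4 Y-linked genes (Kdm5d, Uty, Ddx3y and Eif2s3y), and the KO lines held 11233 to 13722 and 4 to 8. WT lines 36 and 47 held 94 and 1179 counts of Xist and 13788 and 12841 of the Y-linked genes, so the genotypes also differed in this respect. All 10 fibroblast markers were detected, with summed levels of 71176 to 76577 CPM (counts relative to the library size after TMM, trimmed mean of M-values, scaling) in HAT1 WT and 57738 to 89814 CPM in HAT1 KO.

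Shown is 1 promoter of each of the 2 raised genes and of the most lowered of the 7. The E2F motif, common in promoters of genes used in DNA replication, was searched in all members. The sequences are RefSeq promoters of GRCm38.p6 on the minus strand, from 250 bases before to 50 bases after the start, written 5′ to 3′. Capitals mark the E2F motif TTTNNCGC or the CCAAT box CCAAT, on either strand. Cbx5 lies at chr15:103239803-103240102, Suv39h1 at chrX:8074312-8074611 and Kdm7a at chr6:39206724-39207023.
Cbx5 promoter: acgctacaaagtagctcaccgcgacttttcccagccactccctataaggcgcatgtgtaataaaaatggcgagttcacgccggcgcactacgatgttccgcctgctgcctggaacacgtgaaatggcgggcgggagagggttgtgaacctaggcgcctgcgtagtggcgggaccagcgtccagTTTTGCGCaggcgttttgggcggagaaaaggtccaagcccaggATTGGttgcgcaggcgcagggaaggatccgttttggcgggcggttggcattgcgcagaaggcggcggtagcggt
Suv39h1 promoter: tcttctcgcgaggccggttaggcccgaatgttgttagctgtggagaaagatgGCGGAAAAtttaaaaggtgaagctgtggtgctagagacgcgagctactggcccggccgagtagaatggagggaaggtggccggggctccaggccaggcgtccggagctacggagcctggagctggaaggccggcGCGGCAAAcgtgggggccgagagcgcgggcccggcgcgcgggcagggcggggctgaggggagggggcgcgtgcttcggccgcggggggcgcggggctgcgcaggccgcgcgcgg
Kdm7a promoter: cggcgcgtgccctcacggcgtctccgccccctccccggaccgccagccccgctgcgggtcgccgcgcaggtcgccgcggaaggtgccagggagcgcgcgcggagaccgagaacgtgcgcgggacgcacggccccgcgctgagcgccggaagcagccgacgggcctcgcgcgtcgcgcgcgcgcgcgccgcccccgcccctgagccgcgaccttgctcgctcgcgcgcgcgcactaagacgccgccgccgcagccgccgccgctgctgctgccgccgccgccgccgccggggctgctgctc
The Cbx5 promoter held 1 E2F match and 1 CCAAT box, the Suv39h1 promoter held 2 E2F matches, and the Kdm7a promoter held none of the motifs at a GC content of 82.7%. Cbx5 and Suv39h1 each have 2 listed promoters, and those printed are the ones with an E2F match. The other Suv39h1 promoter (chrX:8074711-8075010) spans the annotated gene start at 8074760, and the printed one lies within the gene. That other promoter held 2 CCAAT boxes and no E2F match. The other Cbx5 promoter held none of the motifs. Of the 49 members, 35 had a promoter in the table, and 4 of them (11.4%) held an E2F match, namely Cbx3, Cbx5, Kmt5c and Suv39h1. Of these Cbx3 had a log2 fold change of 0.08 (unadjusted p = 0.439) and Kmt5c of -0.12 (unadjusted p = 0.385, edgeR). Over all 27025 genes with a promoter the share was 5.93%, and over all 32851 promoters it was 5.17%. A CCAAT box stood in promoters of 15 of the 35 members (42.9%), against 41.1% of genes and 37.4% of promoters. The motif TTTGAA, known as the cell cycle homology region, stood in 2 of the 35 (5.71%), against 20.2% of genes and 17.9% of promoters. These are matches of letters and not measured binding.

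Per kilobase of exon, the HP1 partner Trim28 (KAP1, which brings the H3K9 methyltransferase SETDB1 to zinc finger proteins) had the highest level of the set. Its level was 66.2 ± 6.10 CPM per kb in HAT1 WT (SD, n = 3). It was followed by the H3K9 dimethyltransferase Ehmt2 (G9a) at 32.9 ± 2.87, Cbx5 (HP1α) at 26.1 ± 2.66 and the H3K9 and H3K36 demethylase Kdm4a at 23.3 ± 0.285 CPM per kb. Ehmt2 and Cbx5 were apart by more than their SDs together, and Cbx5 and Kdm4a by about the SD of Cbx5.
The middle of the order was dense. Kmt2e, Cbx1 and Ehmt1 lay between 9.40 and 9.60 CPM per kb, and Setdb1, Kmt5a, Atrx and Kdm7a lay between 7.02 and 7.06 CPM per kb, so neighbours there differed by less than their spread.
At the low end stood Suv39h1 at 2.55 ± 0.357, Setdb2 at 1.54 ± 0.204, Smyd3 at 1.04 ± 0.0630, Prdm16 at 0.943 ± 0.171 and Suv39h2 at 0.665 ± 0.206 CPM per kb. Kdm4d, a demethylase of H3K9 best known from testis, was the lowest at 0.0358 CPM per kb. It had 13, 6 and 6 counts in WT lines 36, 47 and 78 and 20, 6 and 6 in KO lines 33, 41 and 72, too few to be tested.
The coefficient of variation between WT lines ran from 0.959% for Kmt5c to 31.0% for Suv39h2 among tested members, and it was 59.4% for Kdm4d.

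**Figure D1:**
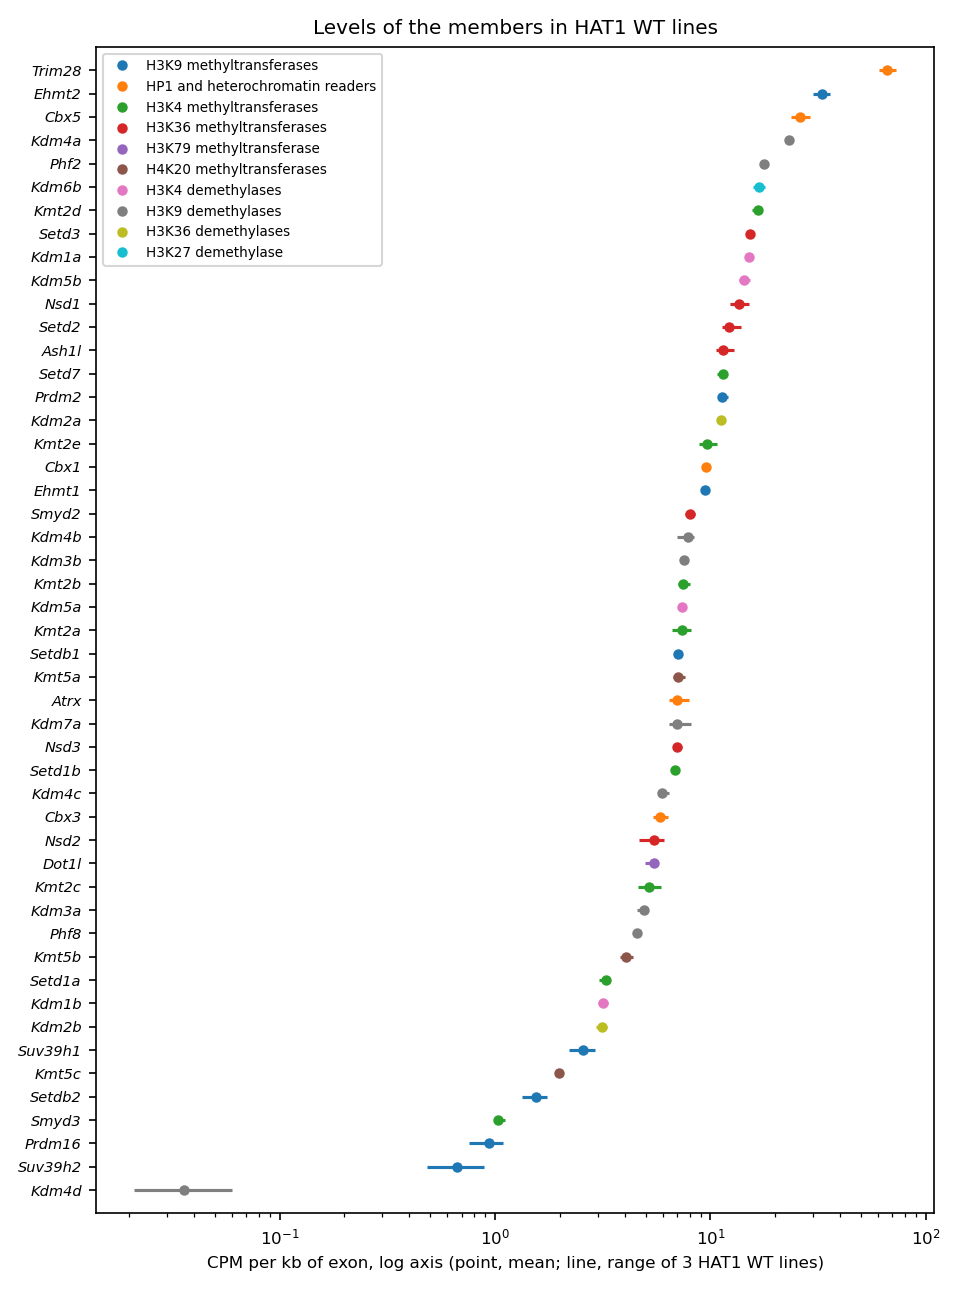
Mean level of each of the 49 members in HAT1 WT lines, as CPM per kb of exon on a log axis, with lines for the range of the 3 WT lines and colours for the groups. Trim28 is highest at 66.2 CPM per kb and Kdm4d lowest at 0.0358.

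Over all 14773 tested genes 0.528% passed the adjusted threshold of 0.05 and none of the 48 members did, a share near that of all genes. The smallest adjusted p of the members was 0.0772 (Kdm7a, edgeR). With DESeq2's Wald test 3 of the 48 members passed an adjusted p of 0.05 (Cbx5, Suv39h1 and Kdm7a), against 871 of all 14773 genes. With voom 1 of the 48 did (Kdm7a), against 267 of all 14773 genes.
The lines of the genotypes did not overlap for 2 members higher in HAT1 KO (4.17%, against 9.59% of all genes). They did not overlap for 9 members lower in HAT1 KO (18.8%, against 12.4%), namely Atrx, Kmt2b, Kmt2e, Setd2, Kmt5b, Kdm5a, Kdm4c, Kdm7a and Kdm2a. For some the gap was far under the spread between lines. Kmt2b was at 68.00 CPM in KO line 33 and 68.03 in WT line 36, and Kmt5b at 56.34 in KO line 41 and 56.38 in WT line 47. Kdm4c was at 33.31 CPM in KO line 72 and 33.36 in WT line 36.
The fitted log2 fold change was above 0 for 18 members and below 0 for 30, with a median of -0.08. Over all tested genes it was above 0 for 51.5%, with a median of 0.01. The median SE was 0.10 for the members and 0.14 for all genes.

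**Figure D2:**
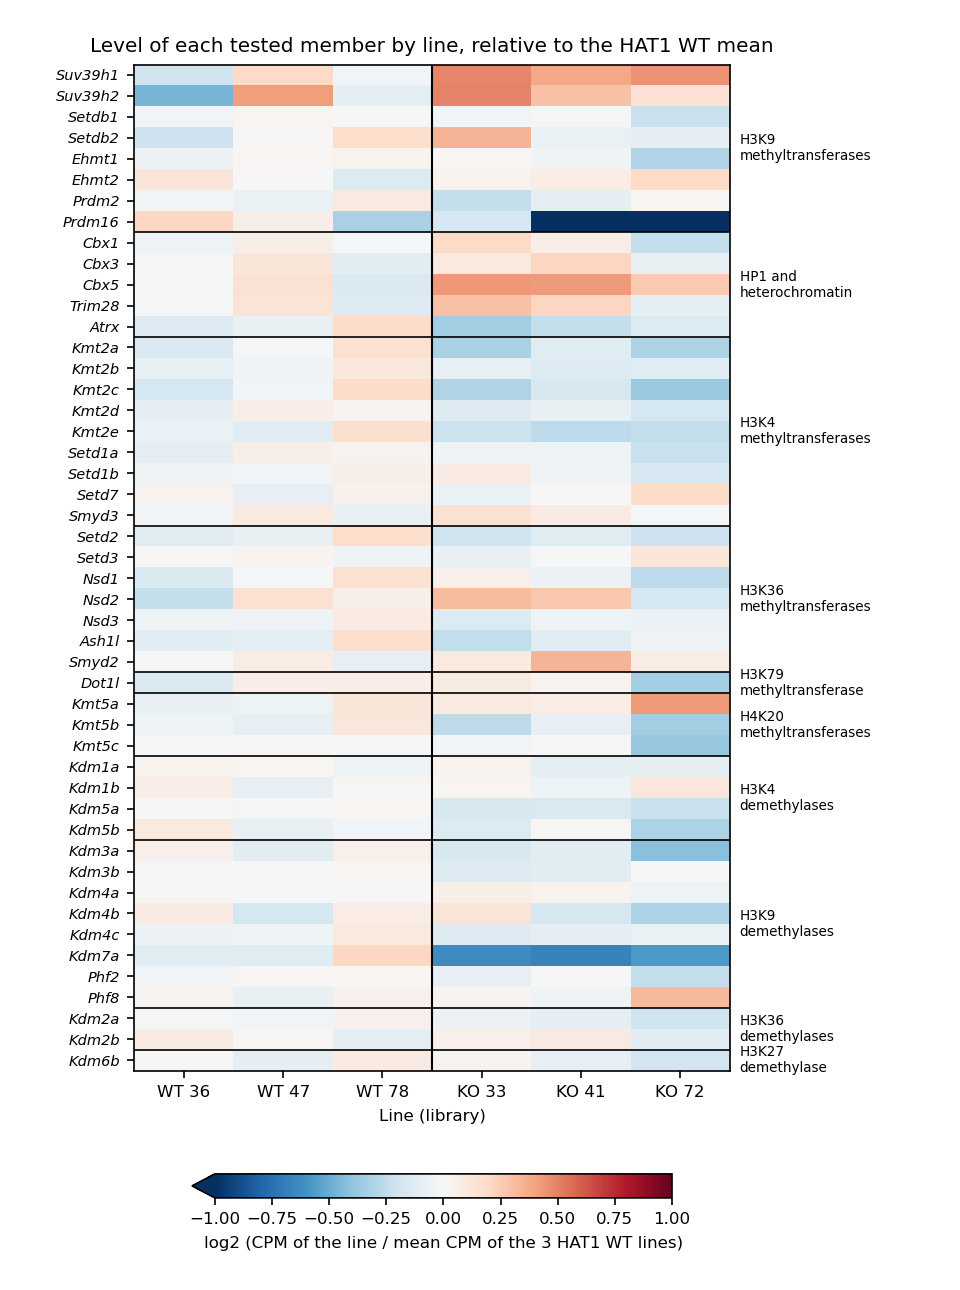
Level of the 48 tested members in each line, as the log2 ratio of its CPM to the mean of the 3 HAT1 WT lines (red above, blue below, colour limit at -1 and 1), grouped by the residue acted on. Kdm7a is below the WT mean in all 3 KO lines, Suv39h1 and Cbx5 are above it in all 3, and Prdm16 lies beyond the colour limit in KO lines 41 and 72.

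The H3K9 methyltransferases were split, with 4 of 8 tested members above 0 and a median log2 fold change of -0.01. Suv39h1 (chromosome X, positions 8061171 to 8074760), which trimethylates H3K9 at pericentric heterochromatin, was at 11.7, 15.4 and 13.2 CPM in WT lines 36, 47 and 78. It was at 18.8, 17.6 and 18.3 CPM in KO lines 33, 41 and 72. Every KO line was above every WT line, giving a log2 fold change of 0.44 ± 0.12 (SE, n = 3 each) at an unadjusted p of 0.00938 and an adjusted p of 0.194 (edgeR). Within Xist-high lines the comparison is of 1 WT line, 78, at 13.2 CPM with the KO lines. With sex-linked expression as a term the log2 fold change was 0.47, which rests on that WT line alone. Antisense gene Gm14820 overlaps 14.6% of the exon bases of Suv39h1, and strand use was not stated, so reads of both could be counted together.
Suv39h2, the paralog of Suv39h1, lay outside the naming rule and was added after its values were seen. It was at 2.12, 3.91 and 2.76 CPM in WT lines 36, 47 and 78 and at 4.13, 3.59 and 3.24 CPM in KO lines 33, 41 and 72, so the genotypes overlapped. Its log2 fold change was 0.32 ± 0.26 (unadjusted p = 0.262, edgeR).
Prdm16, an H3K9 monomethyltransferase also known from brown fat cells, had the lowest fold change of the set. It was at 10.2, 9.17 and 7.03 CPM in WT lines 36, 47 and 78 and at 7.82, 4.04 and 2.14 CPM in KO lines 33, 41 and 72. KO line 33 fell within the WT range, and the log2 fold change of -0.91 ± 0.45 had an unadjusted p of 0.0896 (edgeR). Without KO line 33 it was -1.51, with an unadjusted p of 0.00533, and without KO line 72 it was -0.55, with an unadjusted p of 0.132. With sex-linked expression as a term it was -0.59, from WT line 78 alone against the KO lines.
The remaining members, Setdb1, Setdb2, Ehmt1, Ehmt2 and Prdm2, had log2 fold changes from -0.10 to 0.10, with unadjusted p-values of 0.273 or more (edgeR). Mecom, outside the rule, ranged more between KO lines than between genotypes, at 29.8, 30.3 and 16.5 CPM in WT lines 36, 47 and 78 and 20.9, 17.7 and 119 CPM in KO lines 33, 41 and 72.

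Among the HP1 genes, Cbx5 alone had an unadjusted p under 0.05. Cbx5 (chromosome 15, positions 103191544 to 103239816) was at 232, 261 and 214 CPM in WT lines 36, 47 and 78 and at 319, 317 and 282 CPM in KO lines 33, 41 and 72. The KO lines were all above the WT lines, giving a log2 fold change of 0.38 ± 0.10 (SE) at an unadjusted p of 0.00817 and an adjusted p of 0.188 (edgeR). With the sequencing lane as a term it was 0.36, with an unadjusted p of 0.0596 (edgeR). That fit takes WT line 36 out of the genotype difference, so a lane effect and a missing line cannot be told apart.
Cbx1 (HP1β) was at 39.6, 42.7 and 40.7 CPM in WT lines 36, 47 and 78 and at 46.7, 42.9 and 34.8 CPM in KO lines 33, 41 and 72. The KO lines lay on both sides of the WT lines, at a log2 fold change of 0.02 ± 0.12 whose sign changed with the line left out. Cbx3 (HP1γ) was at 34.5, 38.0 and 32.4 CPM in WT lines 36, 47 and 78 and at 37.4, 40.6 and 33.2 CPM in KO lines 33, 41 and 72, at 0.08 ± 0.10. The genotypes overlapped, and Cbx3 has 8 annotated pseudogenes that could share its reads. The difference in response between Cbx5 and the other HP1 genes was not tested.
As a share of the 3 HP1 genes' levels per kb, Cbx5 made up 62.8 ± 1.32% in HAT1 WT and 68.2 ± 1.20% in HAT1 KO (SD, n = 3 each). The share of Cbx1 was 23.1 ± 1.35% in HAT1 WT and 19.4 ± 1.34% in HAT1 KO, and that of Cbx3 was 14.03 ± 0.0828% and 12.4 ± 0.580%. These shares were computed from the values just given and carry no test of their own. As parts of the same total, a higher share of Cbx5 brings lower shares of Cbx1 and Cbx3. The log2 fold changes of Cbx1 and Cbx3 themselves were 0.02 and 0.08.
Trim28 was at 273, 302 and 251 CPM in WT lines 36, 47 and 78 and at 337, 320 and 257 CPM in KO lines 33, 41 and 72, with overlap and a log2 fold change of 0.15 ± 0.13. Atrx, a chromatin remodeller on the X chromosome that acts with DAXX in placing histone H3.3, was at 140, 145 and 173 CPM in WT lines 36, 47 and 78. It was at 120, 130 and 139 CPM in KO lines 33, 41 and 72. No KO line reached the lowest WT line, and the log2 fold change of -0.24 ± 0.10 had an unadjusted p of 0.0596 (edgeR). Without WT line 78 it was -0.13 (unadjusted p = 0.158, edgeR). With sex-linked expression as a term it was -0.42, which rests on WT line 78 alone against the KO lines.
Proliferation genes were also higher, beside Cbx5 and Suv39h1. Of 12 such genes, 9 were higher at an unadjusted p under 0.05 (edgeR), against 5.88% of all genes, and none was at 0. Their summed level was 535 to 800 CPM in HAT1 WT and 757 to 1101 CPM in HAT1 KO. The highest WT line in that sum and in Cbx5 and Suv39h1 was line 47. The lowest was WT line 36 in the sum and in Suv39h1, and WT line 78 in Cbx5. KO line 72 was below WT line 47 in the sum (757 against 800 CPM) and above it in Cbx5 and Suv39h1. The part of proliferation in the differences of Cbx5 and Suv39h1 was not tested.

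**Figure D3:**
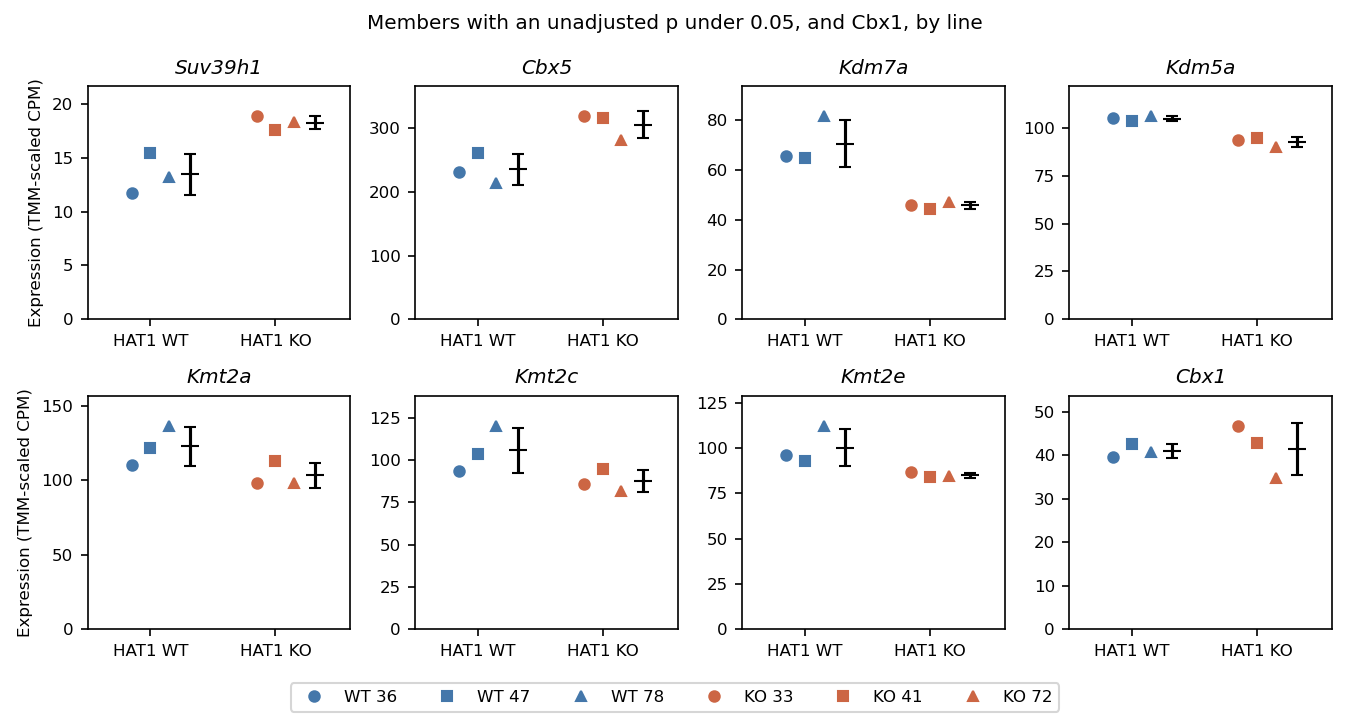
TMM-scaled CPM in each line for the 7 members with an unadjusted p under 0.05 and for Cbx1, with the mean and SD of the 3 lines of each genotype beside the points. The KO lines are above all WT lines for Suv39h1 and Cbx5 and below them for Kdm7a, Kdm5a and Kmt2e, while those of Kmt2a, Kmt2c and Cbx1 overlap the WT lines.

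The H3K9 demethylases held the smallest p of the set. Kdm7a (chromosome 6, positions 39136623 to 39206789), a JmjC enzyme that removes mono- and dimethyl groups from H3K9 and H3K27, was at 65.4, 64.8 and 81.5 CPM in WT lines 36, 47 and 78. It was at 45.7, 44.5 and 47.3 CPM in KO lines 33, 41 and 72. The KO lines lay close together and below all WT lines, with means of 45.8 ± 1.42 CPM in HAT1 KO and 70.6 ± 9.49 CPM in HAT1 WT (SD, n = 3 each). This gave a log2 fold change of -0.62 ± 0.10 (SE) at an unadjusted p of 0.000798 and an adjusted p of 0.0772 (edgeR). With sex-linked expression as a term the log2 fold change was -0.83, which rests on WT line 78 alone against the KO lines.
In bulk RNA, fewer cells of a type and less RNA per cell cannot be told apart. Of 10 myeloid markers 9 were lower in HAT1 KO at an unadjusted p under 0.05 (edgeR), against 8.77% of all genes, and none was at 0. Their summed levels were 1887 to 2038 CPM in HAT1 WT and 1075 to 1223 CPM in HAT1 KO. At the same threshold 2 of 4 tested endothelial and 1 of 10 fibroblast markers were lower, and 1 of 3 neural markers was higher. No tested epithelial or skeletal muscle marker passed it. The part of these cell types in the difference of Kdm7a was not tested.
Phf8, an X-linked demethylase of H3K9 and H4K20, had the highest fold change of the group. It was at 43.4, 40.5 and 43.9 CPM in WT lines 36, 47 and 78 and at 43.3, 41.4 and 53.2 CPM in KO lines 33, 41 and 72. KO lines 33 and 41 lay within the WT range, and the log2 fold change was 0.11 ± 0.11, or 0.0039 without KO line 72.
The other members tested were Kdm3a, Kdm3b, Kdm4a, Kdm4b, Kdm4c and Phf2. Their log2 fold changes ran from -0.22 for Kdm3a (unadjusted p = 0.0728, edgeR) to 0.01 for Kdm4a.

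The H3K4 methyltransferases were mostly below 0, with 7 of 9 below 0 and a median log2 fold change of -0.11. Over all tested genes 51.5% were above 0, and of those with exons over 10 kb 62.9% were below 0. All 5 KMT2 genes, which encode the large SET domain proteins of the MLL family, were below 0. This held in each of the 14 alternative settings, with values from -0.45 to -0.05. Those settings refit the same libraries and are not further evidence. WT line 78 was the highest line in 4 of the 5. With sex-linked expression as a term the log2 fold changes of Kmt2a, Kmt2c and Kmt2e were -0.40, -0.45 and -0.40. These values, and so the -0.45 end of that range, rest on WT line 78 alone against the KO lines.
Kmt2a (MLL1) was at 110, 122 and 136 CPM in WT lines 36, 47 and 78 and at 98.0, 113 and 98.3 CPM in KO lines 33, 41 and 72. KO line 41 was above WT line 36, and the log2 fold change was -0.25 ± 0.10, with an unadjusted p of 0.0478 and an adjusted p of 0.336 (edgeR). Without WT line 78 it was -0.16, with an unadjusted p of 0.161.
Kmt2c (MLL3), which acts mainly at enhancers, was at 93.6, 104 and 120 CPM in WT lines 36, 47 and 78 and at 85.9, 94.8 and 81.8 CPM in KO lines 33, 41 and 72. KO line 41 was above WT line 36, and the log2 fold change was -0.27 ± 0.11, with an unadjusted p of 0.0454 and an adjusted p of 0.332 (edgeR). Without WT line 78 it was -0.16, with an unadjusted p of 0.150.
Kmt2e (MLL5), a member of the family without known methyltransferase activity of its own, was at 96.0, 92.9 and 112 CPM in WT lines 36, 47 and 78. It was at 86.6, 83.8 and 84.5 CPM in KO lines 33, 41 and 72, all below the WT lines. The log2 fold change was -0.24 ± 0.08, with an unadjusted p of 0.0284 and an adjusted p of 0.285 (edgeR). Without WT line 78 it was -0.15, with an unadjusted p of 0.0604. Srpk2 on the other strand overlaps 9.31% of its exon bases.
Kmt2b was at 68.0, 70.2 and 77.2 CPM in WT lines 36, 47 and 78 and at 68.0, 65.8 and 65.9 CPM in KO lines 33, 41 and 72. Kmt2d, the most abundant of the family per kb at 16.6 CPM per kb in HAT1 WT, was at 310, 346 and 337 CPM and at 302, 313 and 294 CPM in the same order of lines. Their log2 fold changes were -0.11 ± 0.07 and -0.13 ± 0.07.
At the other end stood Smyd3, at 9.35, 10.2 and 9.08 CPM in WT lines 36, 47 and 78 and at 10.6, 10.1 and 9.41 CPM in KO lines 33, 41 and 72, with a log2 fold change of 0.07 ± 0.10. Setd1a, Setd1b and Setd7 lay between -0.10 and 0.04. Setd1a shares 52.3% of its exon bases with the same-strand gene Gm49388 and another gene, so its count is uncertain.

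Of the H3K4 demethylases, Kdm5a (RBP2), a JmjC enzyme that removes di- and trimethyl groups, was at 105, 103 and 106 CPM in WT lines 36, 47 and 78 and at 93.8, 94.5 and 89.8 CPM in KO lines 33, 41 and 72. The lines of each genotype were close together and did not overlap. The log2 fold change was -0.18 ± 0.05, with an unadjusted p of 0.0163 and an adjusted p of 0.232 (edgeR). The unadjusted p (edgeR) was 0.0989 with the lane as a term, which takes WT line 36 out of the difference. It was 0.0521 to 0.0549 with any WT line left out. With sex-linked expression as a term the log2 fold change was -0.19, from WT line 78 alone against the KO lines. Kdm1b (LSD2) was at 18.4, 16.5 and 17.6 CPM in WT lines 36, 47 and 78 and at 17.8, 16.9 and 19.0 CPM in KO lines 33, 41 and 72, at 0.03 ± 0.09. Kdm1a (LSD1) and Kdm5b lay at -0.05 and -0.14.

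None of the 7 genes grouped here as H3K36 methyltransferases had an unadjusted p under 0.05 (edgeR), and 3 were above 0. Setd2, the enzyme for H3K36 trimethylation, was at 122, 125 and 149 CPM in WT lines 36, 47 and 78 and at 115, 121 and 114 CPM in KO lines 33, 41 and 72. The KO lines were below all WT lines, at a log2 fold change of -0.18 ± 0.09 and an unadjusted p of 0.104 (edgeR). Without WT line 78 it was -0.07 (unadjusted p = 0.329, edgeR). With sex-linked expression as a term it was -0.35, which rests on WT line 78 alone against the KO lines. Smyd2 was at 21.9, 23.1 and 20.7 CPM in WT lines 36, 47 and 78 and at 23.5, 27.7 and 23.1 CPM in KO lines 33, 41 and 72, at 0.18 ± 0.10, or 0.09 without KO line 41. Other genes overlap 30.0% of its exon bases. Nsd1, Nsd2, Nsd3, Ash1l and Setd3 lay between -0.13 and 0.15.
The H3K36 demethylases were at -0.11 ± 0.07 for Kdm2a and 0.01 ± 0.09 for Kdm2b. Kdm2a was at 159, 158 and 166 CPM in WT lines 36, 47 and 78 and at 155, 152 and 140 CPM in KO lines 33, 41 and 72, each KO line below each WT line. Kdm2b was at 36.1, 34.4 and 31.8 CPM and at 35.3, 36.3 and 31.6 CPM in the same order, with overlap.

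Dot1l, the only H3K79 methyltransferase, was at 43.1, 49.9 and 49.9 CPM in WT lines 36, 47 and 78 and at 50.6, 48.8 and 37.6 CPM in KO lines 33, 41 and 72. KO line 72 was below all WT lines and the others were not, at a log2 fold change of -0.06 ± 0.13.
The H4K20 enzymes lay on both sides of 0, and none passed the test. Kmt5a (SET8), the monomethyltransferase, was at 35.6, 36.1 and 40.6 CPM in WT lines 36, 47 and 78 and at 40.1, 39.5 and 50.4 CPM in KO lines 33, 41 and 72, at 0.21 ± 0.12 (unadjusted p = 0.121, edgeR). Without KO line 72 it was 0.10 (unadjusted p = 0.294, edgeR). With sex-linked expression as a term it was 0.09, which rests on WT line 78 alone against the KO lines. Kmt5b (SUV420H1), which adds the later methyl groups, was at 57.9, 56.4 and 64.6 CPM in WT lines 36, 47 and 78. It was at 49.7, 56.3 and 46.8 CPM in KO lines 33, 41 and 72, at -0.23 ± 0.09 (unadjusted p = 0.0504, edgeR). Kmt5c (SUV420H2) lay at -0.12.
Kdm6b (JMJD3), which removes H3K27 methylation, was at 118, 110 and 124 CPM in WT lines 36, 47 and 78 and at 120, 111 and 103 CPM in KO lines 33, 41 and 72, at -0.08 ± 0.08.

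**Figure D4:**
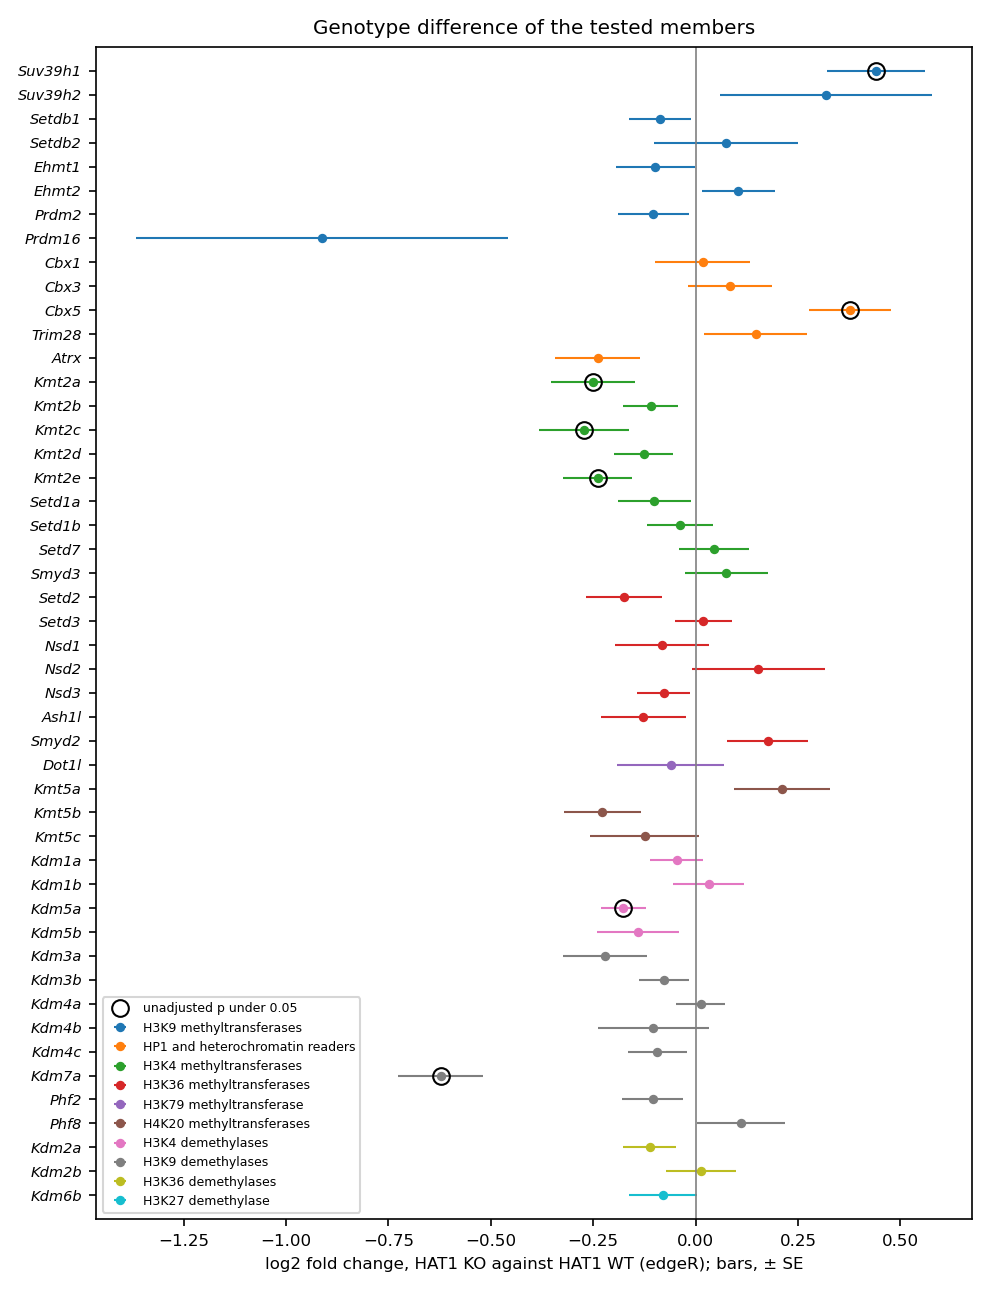
edgeR log2 fold change of HAT1 KO against HAT1 WT for the 48 tested members, with bars of ± SE and colours for the groups. Circles ring the 7 members with an unadjusted p under 0.05, 2 to the right of 0 and 5 to the left.

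Negative fold changes were more common among long genes. The 5 lower members at an unadjusted p under 0.05 all had exons that add up to over 10 kb, and both higher ones had between 5 and 10 kb. Kdm7a (10057 bases) and Kmt2e (10444 bases) lay just above that limit. Of the 19 members over 10 kb, 16 were below 0, with a median log2 fold change of -0.13. Of all 1388 tested genes over 10 kb, 62.9% were below 0, with a median of -0.06, and 12.7% were lower at an unadjusted p under 0.05. Of the 7 members under 5 kb, 2 were below 0, with a median of 0.07, against 44.1% and a median of 0.04 over all genes of that length. The part of exon length in the members' differences was not tested.
Single lines weighed differently on members and other genes. WT line 78 was the highest line in 19 of the 48 members and in 20.5% of all tested genes, and in 13 of the 19 members over 10 kb against 36.5% of all genes of that length. KO line 72 was the lowest line in 22 of the 48, against 25.4% of all tested genes. Without WT line 78, Kdm7a alone was lower at an unadjusted p under 0.05, at -0.50. The median of the members was -0.03 without WT line 78 and -0.01 without KO line 72.

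**Figure D5:**
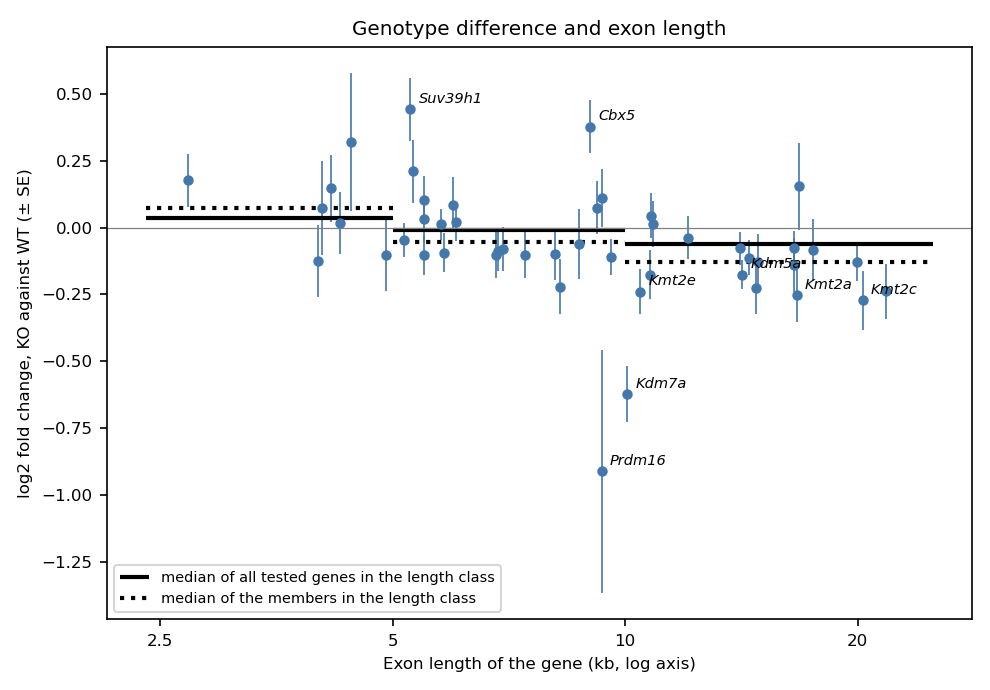
Exon length (kb, log axis) against the log2 fold change of the 48 tested members with bars of ± SE, and the medians of all genes (solid) and of members (dotted) under 5 kb, from 5 to 10 kb and over 10 kb. The median falls from 0.07 to -0.13 over the members and from 0.04 to -0.06 over all genes.

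Genes that work with these enzymes were taken from 8 lists. Of their 91 genes 86 were tested, 44 above 0 and 42 below, with a median log2 fold change of 0.02. At an unadjusted p under 0.05, 4 were higher (4.65%, against 5.88% of all genes) and 5 lower (5.81%, against 8.77%), 2 of the 5 being Y-linked. None passed the adjusted threshold (smallest adjusted p = 0.119, edgeR).
Uhrf1, which reads H3K9 methylation and brings in DNA methyltransferase 1, was at 44.2, 65.8 and 43.3 CPM in WT lines 36, 47 and 78 and at 92.9, 81.0 and 75.2 CPM in KO lines 33, 41 and 72. The log2 fold change was 0.70 ± 0.18, with an unadjusted p of 0.00793 (edgeR). Hells (LSH), a remodeller of heterochromatin, was at 0.44 ± 0.17 with an unadjusted p of 0.0411. These were the members of the H3K9 pathway list past that threshold, of 13 tested, and 5 of the 13 were above 0.
None of 11 COMPASS subunits and partners of the KMT2 complexes had an unadjusted p under 0.05, and 8 were above 0, with a median of 0.08. Of 6 DOT1L cofactors Mllt1 was higher, at 0.20 ± 0.05 (unadjusted p = 0.00835, edgeR), and Mllt6 lower, at -0.17 ± 0.06 (unadjusted p = 0.0298). Of 7 protein arginine methyltransferases Carm1 was higher, at 0.16 ± 0.05 (unadjusted p = 0.0237, edgeR).
Of 9 other JmjC genes Jmjd1c was lower, at 92.2, 98.7 and 116 CPM in WT lines 36, 47 and 78 and at 75.0, 82.3 and 80.2 CPM in KO lines 33, 41 and 72, with a log2 fold change of -0.37 ± 0.10 and an unadjusted p of 0.00893 (edgeR). The other lower genes of that list were Kdm5d and Uty on the Y chromosome, at 27.1 to 31.2 CPM in WT lines 36 and 47 and at most 0.465 CPM in the other lines. Their X-linked counterparts followed the Xist-high lines. Kdm5c was at 178, 178 and 266 CPM in WT lines 36, 47 and 78 and at 270, 251 and 248 CPM in KO lines 33, 41 and 72. Kdm6a was at 25.9, 27.1 and 44.9 CPM and at 39.0, 37.3 and 44.4 CPM in the same order, so that WT line 78 lay with the KO lines for both. None of 15 tested SET and PRDM genes outside the set, and none of 16 readers of H3K4, H3K36 and H4K20 methylation, had an unadjusted p under 0.05.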

How the data were processed

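RNA of 6 libraries (TruSeq RNA Sample Prep v2) was compared, 3 HAT1 WT and 3 HAT1 KO by genotype label. The authors deposited 1 table of raw read counts per gene with no normalization, beside their own comparison of the genotypes (log2 fold change, log2 CPM, an F score, p-value and q-value), which was not used. The submitters' processing notes name edgeR and mm10, and the aligner, counter and strand are not given in the sources used here. Identifiers of all 17512 genes matched GENCODE M21 (GRCm38), which gave exon lengths and positions. In 24 rows a date had replaced the symbol, which was restored from the identifier. No libraries were identical, and 0 columns lacked a sample.

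Genes kept by filterByExpr (14773) were scaled by TMM and tested with edgeR 4.0.16 in R 4.3.3 (glmQLFit, glmQLFTest, genotype alone, two-sided), with Benjamini-Hochberg adjustment over all of them. An exact permutation test over 3 and 3 lines reaches no p under 0.1 for 1 gene. CPM are TMM-scaled, with SD over 3 lines, and SE is that of the log2 fold change. Levels per kb divide CPM by exon bases and carry the uncertainty of the gene models. The fit was tested on simulated data. Named were members with an unadjusted p under 0.05, the extreme members of each group, the HP1 genes, X-linked members and the highest and lowest per kb. Values of Suv39h2, Kmt2b and Kmt2d by line were given outside these rules. The members, lists and rules were chosen with earlier results of these data known. Alternatives used DESeq2 1.42.0, voom with quality weights (limma 3.58.1), other scaling and filters (none, or a mean of at least 50 counts), each line left out, and the lane or sex-linked expression as a term. Counting error and variation between lines were not separated for the members. Total counts were 67720628 to 98786746 per library. The comparison of proteins planned at the start was not made. One gene of the partner lists is not reported here.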

Additional observations from a re-analysis of the deposited data

How the results depend on the processing

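The number of members past an adjusted p of 0.05 was 0 in the reported fit, 3 by DESeq2's Wald test (Cbx5, Kdm7a and Suv39h1), 1 by voom with quality weights (Kdm7a), and 0 under each other alternative. The reported, Wald and voom fits called 78, 871 and 267 of all 14773 genes. Of the members higher at an unadjusted p under 0.05, 1 was left with the lane as a term (Suv39h1) and 1 with sex-linked expression as a term (Cbx5), and leaving out a line gave 2 to 3. The number lower was 5, and it was 3 with DESeq2 size factors, 3 with no filter, 3 with the lane and 9 with sex-linked expression. Leaving out a line gave 1 to 5 lower, with 1 without WT line 78 (Kdm7a), 2 without WT line 47, and 3 without KO line 33 or KO line 72. The median of the members stayed below 0, from -0.10 to -0.01 when a line was left out. Fits with sex-linked expression as a term set WT line 78 alone against the KO lines, for every gene. Kdm7a kept an unadjusted p under 0.05 in all 14 alternatives, from -0.83 to -0.50, Cbx5 and Suv39h1 each in 13 of 14, Kmt2e and Kdm5a in 9, Kmt2c in 7 and Kmt2a in 6. Of the 22 named genes over 308 refits, 260 kept sign and side of the threshold, 27 no longer passed, 10 newly passed and 11 changed sign. The changes of sign were in 4 genes near 0: Cbx1 (-0.0057 with the lane, -0.076 to 0.14 with a line left out), Dot1l (0.027 by voom, -0.14 to 0.073 with a line left out), Kdm1b and Kdm2b (-0.0011 to 0.074 and -0.028 to 0.082 with a line left out). Their cause was not tested. No paired analysis was possible because the genotypes share no line numbers.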
